A study of Homo sapiens with 8 samples.

Results

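The genes described here are the core of G1 control: the kinases CDK4 and CDK6, the D cyclins CCND1, CCND2 and CCND3, the inhibitors CDKN1A, CDKN1B, CDKN2C and CDKN2D, and the kinase substrate RB1. They were chosen by symbol, as 10 of the 26364 gene rows of the expression table, and all 10 were among the 14151 genes that passed the filter on low values and were tested. RNA was sequenced from MV4-11, a human acute myeloid leukemia (AML) cell line that carries FLT3-ITD and the MLL-AF4 fusion, so that every group is this single line. The 4 groups, of 2 libraries each, were vehicle (DMSO, called control), tranylcypromine (TCP, an inhibitor of the histone demethylase LSD1) at 5 μM, palbociclib (an inhibitor of CDK4 and CDK6) at 0.5 μM, and the combination of both at these doses. The labels place all 8 libraries at day 4, whereas the methods of the study let the CDK6 inhibitor act by itself for 1 day and add the LSD1 inhibitor for the other 3. Nothing states that the 2 libraries of a group came from separate cultures, so p-values measure the spread between these libraries, which may be technical.

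As background, D cyclins bind CDK4 or CDK6 in G1 and the complexes phosphorylate RB1, which then releases E2F factors and lets the genes of S phase be transcribed. The INK4 inhibitors, among them CDKN2C (p18) and CDKN2D (p19), bind the kinases themselves, while the CIP/KIP inhibitors CDKN1A (p21) and CDKN1B (p27) bind cyclin-kinase complexes. Palbociclib blocks the activity of both kinases, and an effect on their mRNA is a separate quantity from that block. In blood cells CDK6 and CCND3 are known for prominent roles, and CDK6 is a known transcriptional target of MLL fusions.

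The promoters of the kinases and of CCND3 are shown because CDK4 and CCND3 had the widest range of group means among the 10 genes, and because CDK6 is the partner kinase of CDK4. Each is a window of 300 bases, from 250 before to 50 after the annotated start, taken from RefSeq on GRCh38.p14 and read 5′ to 3′ on the strand of the gene. Capitals mark the E-box CACGTG and the GC box GGGCGG, the latter on either strand.
CDK4, chr12:57752261-57752560, minus strand: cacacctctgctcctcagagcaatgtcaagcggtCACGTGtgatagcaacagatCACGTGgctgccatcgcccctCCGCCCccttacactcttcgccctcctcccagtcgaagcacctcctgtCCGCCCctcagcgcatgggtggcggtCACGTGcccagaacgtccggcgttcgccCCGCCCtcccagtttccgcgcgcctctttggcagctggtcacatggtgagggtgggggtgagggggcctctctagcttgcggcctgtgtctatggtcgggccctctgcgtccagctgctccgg
CDK6, chr7:92836524-92836823, minus strand: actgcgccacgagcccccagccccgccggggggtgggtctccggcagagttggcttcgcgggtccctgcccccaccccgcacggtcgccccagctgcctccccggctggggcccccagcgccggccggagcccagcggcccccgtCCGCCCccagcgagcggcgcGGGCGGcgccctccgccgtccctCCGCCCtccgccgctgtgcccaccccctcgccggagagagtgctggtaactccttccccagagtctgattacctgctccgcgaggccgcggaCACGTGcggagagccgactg
CCND3, chr6:41941759-41942058, minus strand: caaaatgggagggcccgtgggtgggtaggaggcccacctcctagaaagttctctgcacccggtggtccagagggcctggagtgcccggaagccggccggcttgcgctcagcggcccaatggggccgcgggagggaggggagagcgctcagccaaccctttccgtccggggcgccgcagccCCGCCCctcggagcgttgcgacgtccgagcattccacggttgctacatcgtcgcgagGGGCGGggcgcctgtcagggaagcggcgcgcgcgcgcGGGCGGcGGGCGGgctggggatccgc
The CDK4 window held the E-box at positions -216, -196 and -101 from the start, and the CDK6 window printed held it once, at position 31. The other window of CDK6, at a start 2614 bases inside the gene, held neither an E-box nor a GC box. No window of CCND3 held the E-box. The CCND3 window printed is the richest in G and C of the 3 that RefSeq gives for this gene, at a start 108227 bases inside it. Windows were found for 8 of the 10 genes, not for CCND1 and CCND2. The only window of RB1 lies 172699 bases inside the gene, so the promoter at the start of RB1 was not searched, and RB1 is left out of these counts. The other 7 genes had 12 windows, some genes more than 1, and CCND3 windows 108227 and 110830 bases inside the gene were kept. Of the 12, 4 held an E-box (in CDK4, CDK6 and CDKN2C) and 9 held a GC box. With RB1 included these were 4 and 9 of 13. Over 35116 promoter windows of the same length the shares were 7.26% and 45.0%. The windows printed for CDK4, CDK6 and CCND3 had 66.0%, 78.0% and 73.7% G and C, and the 12 ranged from 46.3% to 78.0%. The median over all promoters was 58.7%, and the counts were not adjusted for this. The E2F letters TTTGGCGC or TTTCGCGC were in 0 of the 12 and in 1.15% of all windows, and the CHR element TTTGAA was in 0 of the 12 and in 15.2%. Both strands were searched, and a match or its absence describes only these letters in these windows.

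Levels are given in TPM, the usual unit of transcript abundance corrected for gene length, in which each library has an equal total, and the sequencing depth behind them is unknown. Between 13320 and 13640 genes reached 1 TPM per library, and the 2 libraries of a group correlated with r from 0.983 to 0.991 across genes, which are not independent replicates. The 10 most abundant genes took 9.12% to 9.67% of the TPM in the control and TCP libraries and 14.0% to 15.8% in the palbociclib and combination libraries. The median gene had a log2 fold change of -0.16 with palbociclib and of -0.22 with the combination against control, and of -0.04 with TCP, and the changes below are to be read against these shifts. All 6 markers of the line (PTPRC, CD33, SPI1, FLT3, HOXA9 and MEIS1) were present in every library, with sums of 785 to 905 TPM. Within this sum all 6 passed an adjusted p of 0.05 both with palbociclib and with the combination against control, 3 higher and 3 lower, and for example SPI1 was at 214 and 250 TPM in control and 437 and 497 TPM with the combination, and FLT3 at 249 and 221 TPM and at 81.1 and 62.6 TPM. Palbociclib replicate 2 stood apart in stromal cell markers, which matters for CCND1 and is given there. Markers of other types were low, and CD3D, CD3E and MS4A1 (T and B cells) stayed below 1 TPM in every library. The epithelial markers EPCAM and KRT8 summed to 0.854 to 2.82 TPM. In such bulk RNA, fewer cells in a state and less RNA per cell cannot be told apart.

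Against control, palbociclib and the combination moved the kinase CDK4 and the inhibitors CDKN1B, CDKN2C and CDKN2D down and the cyclin CCND3 up, while TCP alone moved none of the 10 genes past a test. The test was limma on log2(TPM + 1) over all 8 libraries, with p-values adjusted by Benjamini-Hochberg over all genes tested. Differentially expressed genes (DEG) were those with a change of 1 or more on the log2 scale, in either direction, and an adjusted p below 0.01, and rose or fell is said below of genes with an adjusted p below 0.05 at any size. With TCP, 0 of the 10 were DEG and 0 passed 0.05, against 0.0565% and 0.431% of all genes, and 1 (CDK6) had an unadjusted p below 0.05. With palbociclib, 0 were DEG against 9.1% of all genes, but 1 rose and 4 fell against 14.8% and 30.2%, so the share of 5 in 10 lay close to the 45% of all genes that passed. With the combination, 1 was a DEG (CDK4) against 13.7% of all genes, and 1 rose and 5 fell against 15.9% and 37.6%. This share, 6 in 10, was again close to that of all genes, 53.6%. After median-ratio scaling, which centres each library on its median gene, 1 rose and 2 fell with palbociclib, and 1 rose and 3 fell with the combination, against 40.4% and 46.9% of all genes that passed. The median log2 fold change over the 10 genes was -0.04 with TCP, -0.42 with palbociclib and -0.38 with the combination. The 3 comparisons share the control libraries. The libraries of the groups did not overlap for 3, 7 and 7 of the 10 genes in turn, against 34.7%, 76.2% and 80.2% of all genes.

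**Figure D1:**
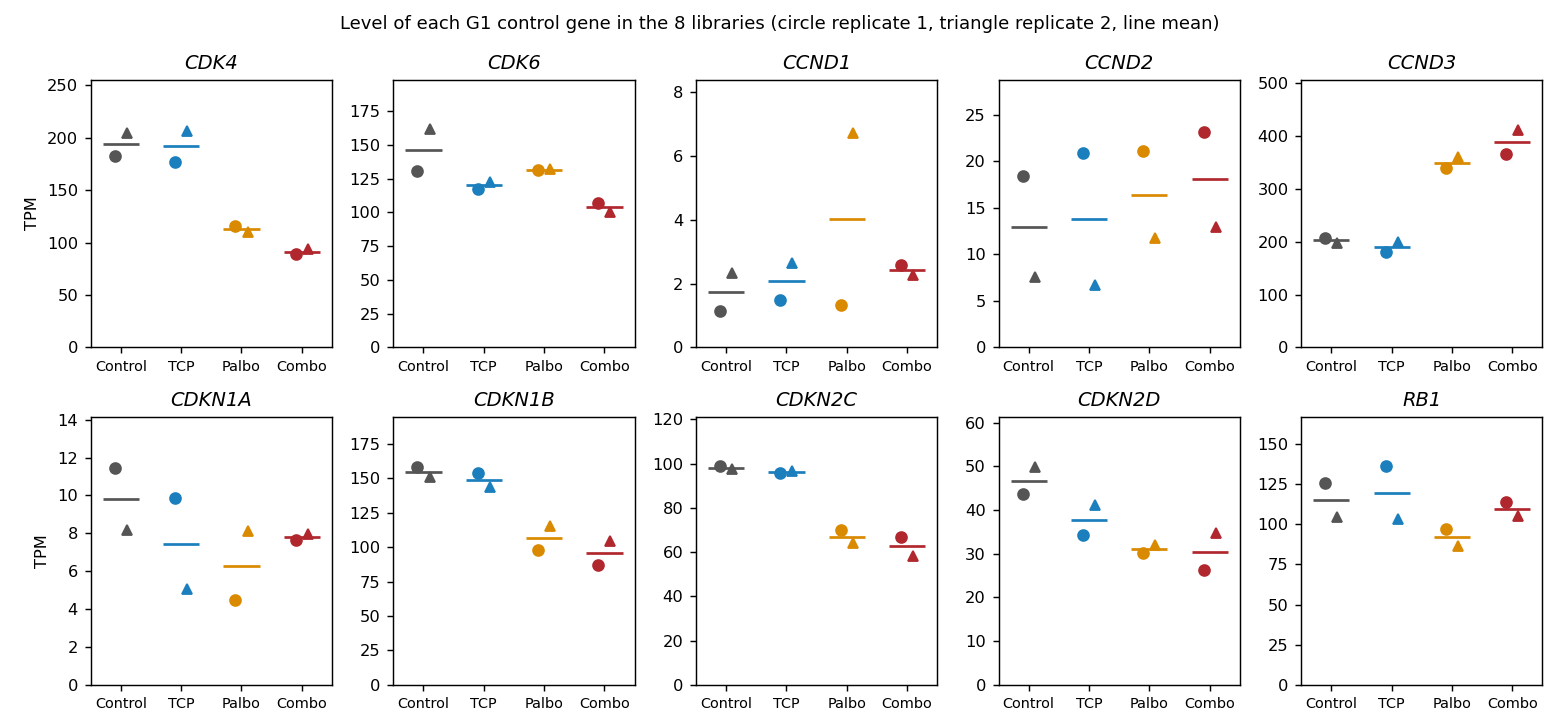
TPM of each gene (vertical axes, from 0) in the 8 libraries, with groups on the horizontal axes, a circle for replicate 1, a triangle for replicate 2 and a line at the mean of the group. CDK4 lies at 183 and 205 TPM in control and at 89.1 and 93.6 TPM in the combination, CCND3 moves the opposite way, and the triangle of CCND2 is below its circle in all 4 groups.

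CDK4 (12:58141510-58149796 on GRCh37, minus strand), the kinase also found in many other tissues, was at 183 and 205 TPM in control and at 177 and 207 TPM in those with TCP. With palbociclib it was at 116 and 110 TPM, and with the combination at 89.1 and 93.6 TPM. The libraries thus fell into 3 levels, with control and TCP together at the top, and neither pair of libraries with palbociclib overlapped the control. The group means were 194 ± 15.8, 192 ± 21.3, 113 ± 4.50 and 91.4 ± 3.24 TPM (SD, n = 2) for control, TCP, palbociclib and combination. CDK4 fell with palbociclib by 0.77 on the log2 scale (SE 0.10, adjusted p = 0.00121, limma), to 0.583 of the control mean. With the combination it fell by 1.07 (SE 0.10, adjusted p = 0.000214, limma), to 0.471 of the control mean. Without control replicate 2 the combination value was -0.99, and CDK4 then missed the fold limit of a DEG, as it did at -0.91 after quantile normalization and at -0.83 after median-ratio scaling. The opposite-strand neighbour TSPAN31 overlaps CDK4 and was at 46.7 to 66.5 TPM. The strand setting of the counting is not given, so reads of the pair may have been exchanged.

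CDK6 (7:92234235-92465887, minus strand), the kinase most studied in leukemia, was at 131 and 162 TPM in control and at 117 and 122 TPM with TCP. With palbociclib it was at 131 and 132 TPM, inside the spread of the control libraries, and with the combination at 107 and 100.4 TPM. The combination libraries were below all 6 others. CDK6 fell with the combination by 0.49 on the log2 scale (SE 0.106, adjusted p = 0.00766, limma), and it did not pass with palbociclib, where the value was -0.14 with a 95% interval from -0.40 to 0.11. With TCP the value was -0.28, with an unadjusted p of 0.0346 and an adjusted p of 0.50 in limma. The call in the combination was lost after median-ratio scaling (-0.24, adjusted p = 0.120) and without combination replicate 2 (-0.44, adjusted p = 0.0532).

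CCND3 (6:41902672-42018095, minus strand), which encodes cyclin D3, was at 208 and 198 TPM in control and at 181 and 200.1 TPM with TCP. With palbociclib it reached 339 and 359 TPM, and with the combination 366 and 410.0 TPM. Every library with palbociclib was above every library without it. CCND3 rose with palbociclib by a log2 fold change of 0.78 (SE 0.0874, adjusted p = 0.000687, limma), 1.72 times the control mean, and with the combination by 0.93 (SE 0.0874, adjusted p = 0.000221, limma), 1.91 times the control mean. It passed 0.05 in both comparisons under all 16 alternatives tried. The fold limit of a DEG was reached with the combination under 3 of them, with values of 1.05 after quantile normalization, 1.18 after median-ratio scaling and 1.01 without combination replicate 1.

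CCND2 (12:4378937-4414519, plus strand), which encodes cyclin D2, was at 18.4 and 7.59 TPM in control, 20.9 and 6.72 TPM with TCP, 21.1 and 11.8 TPM with palbociclib, and 23.2 and 13.0 TPM with the combination. In each of the 4 groups replicate 2 was the lower library, and this gap was larger than any difference between group means. In a model with the replicate number as a block, CCND2 was lower in replicate 2 by a log2 value of -1.07 (SE 0.130, adjusted p = 0.0429, limma), and it was the only 1 of the 10 genes to pass 0.05 for the replicate number, as 1.35% of all genes did. None of the comparisons of treatments passed for CCND2, whose log2 fold change was 0.38 (95% interval -1.03 to 1.80) with palbociclib and 0.51 (-0.91 to 1.93) with the combination. These intervals are from the model without the block. Within each replicate number both groups with palbociclib were above the control. With the block the SE of the combination value was 0.184 instead of 0.598, and its adjusted p was 0.0507 in limma. The antisense gene CCND2-AS1 was at 0.989 to 4.72 TPM.

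CCND1 (11:69455924-69469242, plus strand), which encodes cyclin D1, was the lowest of the 10 genes in all 4 groups. It was at 1.13 and 2.34 TPM in control, 1.49 and 2.66 TPM with TCP, 1.32 and 6.72 TPM with palbociclib, and 2.59 and 2.26 TPM with the combination. The single high value was that of palbociclib replicate 2. No comparison passed, and the log2 fold change with palbociclib was 0.66 (95% interval -0.60 to 1.93). It was -0.20 without palbociclib replicate 2 and 1.53 without palbociclib replicate 1, with an adjusted p of 0.0210 in limma in the latter case, so that this 1 library decided the value.

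The same library stood apart in the markers of stromal cells, a cell type on which the methods of the study say that its AML lines were grown (HS-5), while the labels of these libraries give only the medium. Whether HS-5 cells were in these cultures is not stated. The summed level of the 6 markers (COL1A1, COL1A2, COL3A1, COL6A1, THY1 and PDGFRB) was 95.7 TPM in palbociclib replicate 2 and 14.0 TPM in palbociclib replicate 1. It was 10.3 to 15.6 TPM in control, 16.6 to 17.6 TPM with TCP and 19.6 to 28.5 TPM with the combination. Of the 6 markers, 5 were highest in palbociclib replicate 2, among them the collagen gene COL1A1 at 22.2 TPM against at most 3.78 TPM elsewhere and COL3A1 at 17.5 TPM against at most 1.32 TPM. PDGFRB was at 0.642 TPM there and thus near 0. The part of stromal RNA in the CCND1 value was not tested.

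**Figure D2:**
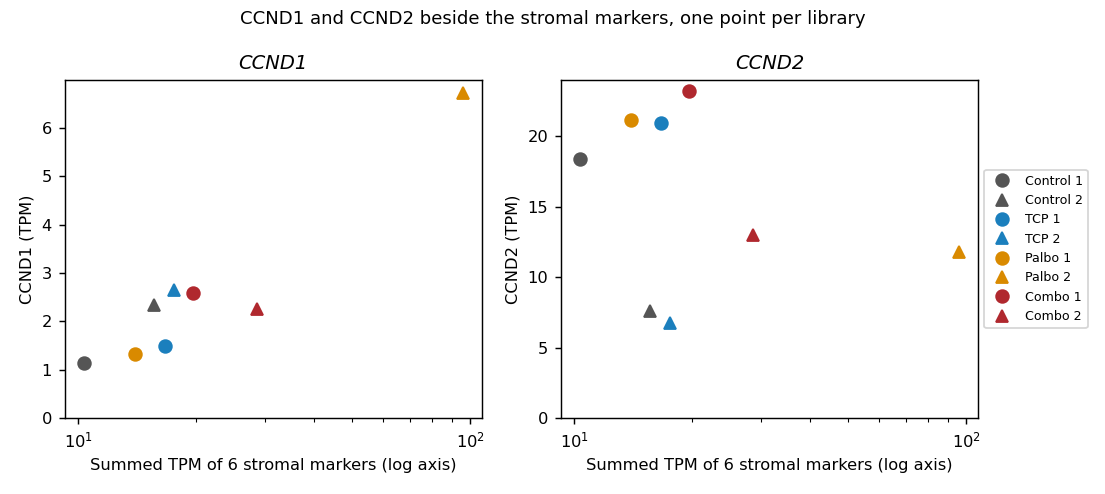
CCND1 (left) and CCND2 (right) in TPM on the vertical axes against the summed TPM of the 6 stromal markers on a log horizontal axis, 1 point per library, circles for replicate 1 and triangles for replicate 2. Palbociclib replicate 2 lies alone at 95.7 TPM of markers with CCND1 at 6.72 TPM, while the 4 triangles of CCND2 lie below the 4 circles.

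CDKN1B (12:12838432-12875303, plus strand), which encodes p27, was the most abundant of the 4 inhibitors. It was at 159 and 151 TPM in control and at 154 and 144 TPM with TCP, against 98.3 and 116 TPM with palbociclib and 87.0 and 105 TPM with the combination. All 4 libraries with palbociclib were below all 4 without it. CDKN1B fell by 0.53 on the log2 scale with palbociclib (SE 0.117, adjusted p = 0.00982, limma) and by 0.69 with the combination (SE 0.117, adjusted p = 0.0026, limma). The call with palbociclib was lost after median-ratio scaling (-0.36, adjusted p = 0.0580), without control replicate 1 (adjusted p = 0.0551) and without palbociclib replicate 1 (adjusted p = 0.0556).

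CDKN1A (6:36644237-36655114, plus strand), which encodes p21 and is a well known p53 target, was low and varied between libraries of a group. It was at 11.4 and 8.20 TPM in control, 9.85 and 5.04 TPM with TCP, 4.49 and 8.11 TPM with palbociclib, and 7.63 and 7.96 TPM with the combination. The control libraries were above both palbociclib and both combination libraries, in the former case by only the gap between 8.20 and 8.11 TPM. Neither comparison passed, with log2 fold changes of -0.60 (95% interval -1.39 to 0.20, adjusted p = 0.187) and -0.28 (-1.08 to 0.51, adjusted p = 0.507) in limma.

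Both INK4 genes were lower in every library with palbociclib than in every control library. CDKN2C (1:51426417-51440306, plus strand) was the steadier, at 98.8 and 97.5 TPM in control and 95.6 and 96.6 TPM with TCP, against 69.8 and 64.1 TPM with palbociclib and 66.9 and 58.3 TPM with the combination. It fell by 0.55 on the log2 scale with palbociclib (SE 0.0885, adjusted p = 0.00292, limma) and by 0.64 with the combination (SE 0.0885, adjusted p = 0.00107, limma), and passed 0.05 in both under all 16 alternatives.

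CDKN2D (19:10677136-10679735, minus strand) was at 43.7 and 49.9 TPM in control, 34.3 and 41.2 TPM with TCP, 30.1 and 32.1 TPM with palbociclib, and 26.2 and 34.7 TPM with the combination. The TCP libraries lay between those of control and those of palbociclib, but the value with TCP, -0.30 (95% interval -0.67 to 0.06), did not pass. CDKN2D fell by 0.57 with palbociclib (SE 0.154, adjusted p = 0.0213, limma) and by 0.61 with the combination (SE 0.154, adjusted p = 0.0135, limma). Of the calls against control these held least often, under 10 and 11 of the 16 alternatives. They were lost without the filter on low values, after quantile normalization (adjusted p = 0.0742 and 0.0779) and after median-ratio scaling (0.103 and 0.112). The palbociclib call was also lost without control replicate 2, without palbociclib replicate 1 and without palbociclib replicate 2 (adjusted p = 0.110, 0.0909 and 0.0701), and the combination call without control replicate 2 and without combination replicate 1 (0.0763 and 0.0727).

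RB1 (13:48877880-49173572, plus strand), the pocket protein that CDK4 and CDK6 phosphorylate, was at 126 and 105 TPM in control and 136 and 103 TPM with TCP. With palbociclib it was at 97.3 and 86.6 TPM, below both control libraries, and with the combination at 114 and 105 TPM, within the spread of the control. The log2 fold changes were -0.32 with palbociclib (SE 0.152, adjusted p = 0.129, limma) and -0.07 with the combination (95% interval -0.43 to 0.29). With the replicate number as a block, RB1 passed 0.05 with palbociclib (adjusted p = 0.0167, limma), as 55.5% of all genes did, the only call of the 10 genes against control that the block added. The opposite-strand gene RCBTB2, which overlaps RB1, was at 8.04 to 43.3 TPM.

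**Figure D3:**
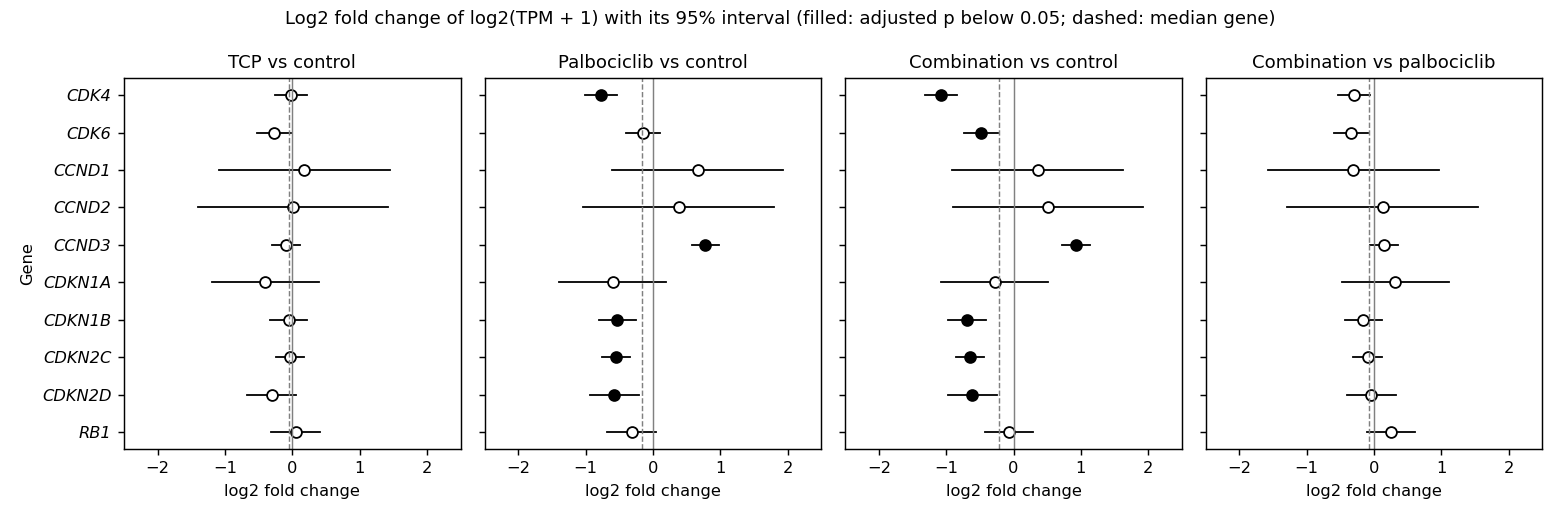
Log2 fold change of log2(TPM + 1) on the horizontal axes with its 95% interval from limma for each gene, in 4 comparisons of 2 libraries against 2, with filled points at an adjusted p below 0.05 and a dashed line at the median of all genes tested. CCND3 is the only filled point above 0, at 0.78 and 0.93, and no point is filled in the comparisons of TCP with control and of the combination with palbociclib.

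Adding TCP to palbociclib asked whether the second molecule moved these genes further, and no gene of the 10 passed in limma. None was a DEG and none passed 0.05, against 0.502% and 3.49% of all genes, and 2 (CDK4 and CDK6) had an unadjusted p below 0.05. Both kinases were lower in both combination libraries than in both palbociclib libraries, CDK4 by a log2 value of -0.30 (95% interval -0.54 to -0.07, adjusted p = 0.181) and CDK6 by -0.34 (-0.59 to -0.09, adjusted p = 0.156). CCND3 and RB1 were the other genes without overlap, at log2 values of 0.15 (-0.06 to 0.36) and 0.25 (-0.11 to 0.61), and 53.7% of all genes did not overlap here. The median over the 10 genes was -0.07 and that of all genes was -0.07.

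Adding palbociclib to TCP gave 2 DEG among the 10 genes, against 12.2% of all genes: CDK4 at a log2 fold change of -1.06 (SE 0.10, adjusted p = 0.000258, limma) and CCND3 at 1.02 (SE 0.0874, adjusted p = 0.000177, limma). CDKN1B fell by 0.63 (adjusted p = 0.00413) and CDKN2C by 0.61 (adjusted p = 0.00145), which made 1 that rose and 3 that fell, against 16.5% and 33.8% of all genes, or 4 in 10 against 50.2%. CDKN2D was at -0.31 (adjusted p = 0.133) and passed only with the replicate block (adjusted p = 0.0218, with 59.5% of all genes passing in that model) or without combination replicate 2 (adjusted p = 0.0489). CDK4 missed the fold limit of a DEG after quantile normalization (-0.90), after median-ratio scaling (-0.86) and without TCP replicate 2 (-0.95), and CCND3 missed it without TCP replicate 1 (0.95) and without combination replicate 2 (0.94).

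Whether the effect of the combination differed from the sum of the single effects was tested as an interaction of TCP and palbociclib on the log2 scale. None of the 10 genes and 0% of all genes passed in limma, and 0 of the 10 had an unadjusted p below 0.05. The values were -0.29 for CDK4 (95% interval -0.62 to 0.05) and 0.24 for CCND3 (-0.05 to 0.54).

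Within a library, ratios of TPM do not depend on its scaling, and they are given as a description without a test. CDK6 was at 0.753 ± 0.0527 of CDK4 in control (SD, n = 2) and at 0.628 ± 0.0517 with TCP, so that CDK4 was the more abundant kinase per length. With palbociclib the ratio was 1.17 ± 0.0505 and with the combination 1.14 ± 0.0908, and CDK6 exceeded CDK4 in all 4 of these libraries and in none of the others. The summed D cyclins amounted to 0.646 ± 0.112 of the summed kinases in control, 0.663 ± 0.0384 with TCP, 1.51 ± 0.0728 with palbociclib and 2.10 ± 0.136 with the combination, and the groups with palbociclib overlapped neither each other nor the rest. CCND3 made up 89.0% to 96.4% of the D cyclin TPM in every library, so this ratio is largely one of CCND3 to the kinases.

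The CIP/KIP inhibitors, of which CDKN1B made up most, amounted to 0.757 ± 0.0117 of the D cyclins in control and 0.758 ± 0.0673 with TCP. They amounted to 0.306 ± 0.0306 with palbociclib and 0.253 ± 0.0168 with the combination. CDKN2C and CDKN2D together were at 0.428 ± 0.0375, 0.430 ± 0.0162, 0.401 ± 0.00450 and 0.477 ± 0.00258 of the summed kinases in the 4 groups in turn. CDKN2A, an INK4 gene outside the 10, was left out of this sum, and with it the ratio was 0.742 ± 0.0872, 0.758 ± 0.0447, 0.624 ± 0.00241 and 0.687 ± 0.000256. These are ratios of mRNA, and say nothing of the protein complexes.

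**Figure D4:**
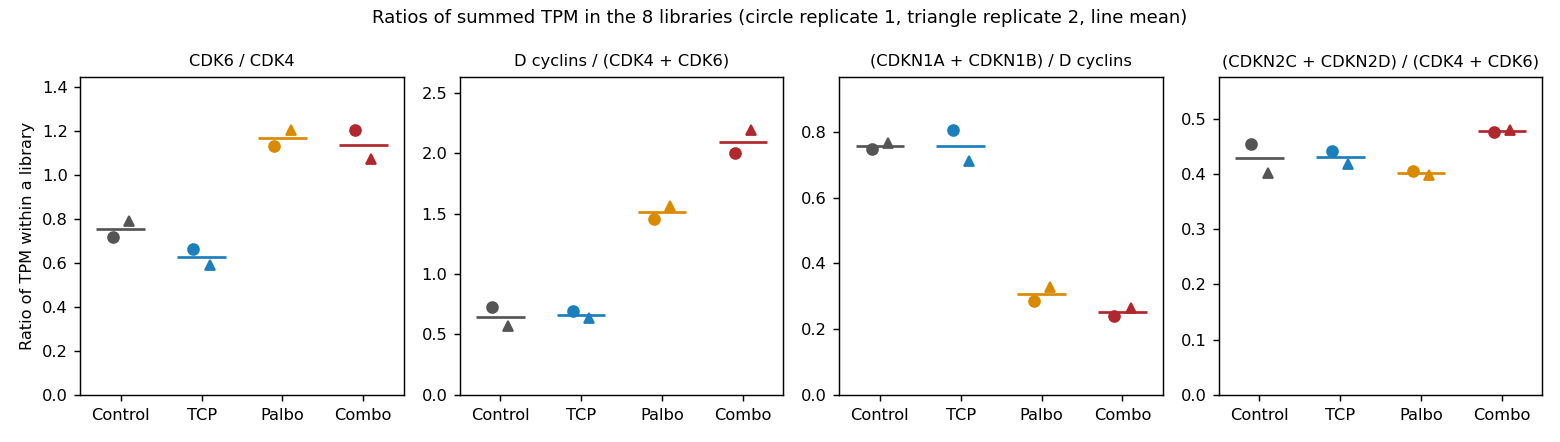
Ratios of summed TPM within a library on the vertical axes, from 0, for the 4 groups, with a circle for replicate 1, a triangle for replicate 2 and a line at the mean. The D cyclins stand at 0.646 of CDK4 plus CDK6 in control and at 2.10 in the combination, and the CIP/KIP inhibitors go from 0.757 to 0.253 of the D cyclins, while CDKN2C plus CDKN2D, without CDKN2A, stay between 0.401 and 0.477 of the kinases.

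In control the order of the mean levels in TPM was CCND3, CDK4, CDKN1B, CDK6, RB1, CDKN2C, CDKN2D, CCND2, CDKN1A and CCND1. The libraries of CCND3 and CDK4 overlapped, as did those of CDKN1B and CDK6 and those of CCND2 and CDKN1A, and the other neighbours in this order did not. With the combination CCND3 stood first at 388 ± 31.0 TPM, and RB1, CDK6, CDKN1B and CDK4 followed, each overlapping the next, so that CDK4 had gone from the second place to the fifth. The last 5 places were unchanged in all 4 groups, from CDKN2C to CCND1.

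Other regulators of the step from G1 to S phase were read from a list of 22 genes, which holds the CDK2 and cyclin E arm, the CDK-activating kinase, E2F factors, pocket proteins and the other inhibitors. With TCP none of the 22 passed 0.05 in limma, and 2 had an unadjusted p below 0.05. With palbociclib 1 rose and 11 fell, 2 of the latter as DEG, and with the combination 2 rose and 14 fell, 7 of the latter as DEG. Over all genes 45% and 53.6% passed 0.05 in these comparisons, while 30.2% and 37.6% fell. DEG made up 9.1% and 13.7% of all genes, and DEG that fell made up 4.56% and 7.82%. With palbociclib the share of the list that passed in either direction was near that of all genes, while the share that fell was higher. The median log2 fold change was -0.32 and -0.47, against -0.16 and -0.22 over all genes. The largest decreases with the combination were those of CKS1B, a subunit that binds CDKs, at -1.73, of CDK2, the kinase that follows CDK4 and CDK6, at -1.64, of CDC25A, the phosphatase that activates CDK2, at -1.59, and of CDKN2A, the locus of the INK4 inhibitor p16, at -1.35. CDK2 stood at a mean of 99.1 TPM in control, 46.9 TPM with palbociclib and 30.9 TPM with the combination, and CDKN2A at 106, 54.6 and 40.9 TPM.

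Genes of S phase that pocket proteins repress made up a list of 12, of which all 12 fell with palbociclib, 8 as DEG, and all 12 fell as DEG with the combination. Over all genes 30.2% and 37.6% fell in these comparisons, and 4.56% and 7.82% fell as DEG. The median log2 fold change of the 12 was -1.05 and -1.55, against -0.16 and -0.22 over all genes. With TCP none of the 12 passed 0.05 and none had an unadjusted p below 0.05 in limma. CCNA2, which encodes cyclin A2, went from a mean of 142 TPM in control to 52.4 TPM with palbociclib and 33.5 TPM with the combination (log2 fold change -2.05). The replication factors CDC45, CDC6 and MCM6 followed at -1.79, -1.75 and -1.65 with the combination. In the comparison of the combination with palbociclib, 4 of the 12 fell, against 1.44% of all genes that fell and 3.49% that passed in either direction. With the replicate block 9 of the 12 passed 0.05, against 8.87% of all genes in either direction.

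A list of 12 other p53 targets was read beside CDKN1A. With palbociclib 2 rose and 3 fell, and with the combination 3 rose and 5 fell, against 45% and 53.6% of all genes that passed 0.05. The medians were -0.03 and -0.17, against -0.16 and -0.22 over all genes. The DEG with palbociclib were 1 higher and 1 lower. The higher one was the death receptor gene FAS, named after its values were seen, which was at 0.543 and 0.534 TPM in control, 2.95 and 3.14 TPM with palbociclib (log2 fold change 1.39) and 1.58 and 1.23 TPM with the combination (0.64). The DEG with the combination were BBC3, which encodes the death factor PUMA, at -1.38 and the nuclease gene AEN at -1.24. With TCP none of the 12 passed 0.05 in limma and 1 had an unadjusted p below 0.05.

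The genes whose levels followed those of CDK4 and CCND3 most closely were sought over the 8 libraries among 2951 genes with a range of group means of at least 1 on the log2 scale. For CDK4 they were B4GALT2, STMN1 and PCNA, with Pearson's r of 0.999, 0.998 and 0.998. PCNA, the sliding clamp of DNA replication, was at 501 and 580 TPM in control and 195 and 204 TPM with the combination. For CCND3 they were CST3, ZNF385A and IL17RA, with r of 0.998, 0.996 and 0.996, and CST3, which encodes cystatin C, was at 56.0 and 59.2 TPM in control and at 228 and 298 TPM with the combination. The 8 points share 4 groups and the TPM scaling, and the values are a description of likeness.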

How the data were processed

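Libraries were made from total RNA with a stranded mRNA kit, and the 8 libraries of MV4-11 were assigned to groups and replicates by their labels. The authors aligned reads to hg19 by subread-align, obtained gene counts from featureCounts 1.6.4 and deposited TPM. The submitters' notes also name SAMtools 1.9 and DESeq2 1.26.0. The gene annotation, the gene lengths and the strand setting are not given in the sources used here, and overlapping genes can have exchanged reads. TPM keep no depth, so counting errors cannot be given.

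From the deposited TPM, log2(TPM + 1) was tested with limma 3.58.1 in R 4.3.3 on genes that reached 1 TPM in 2 or more libraries. The model had 1 coefficient per group over all 8 libraries, 4 residual degrees of freedom and variances moderated with a trend, and gave 6 contrasts. Fold changes on this scale understate those of low genes. The authors' count test was replaced because only TPM were used here, and their DEG thresholds were kept. An exact permutation test of 2 libraries against 2 cannot go below a two-sided p of 0.333, so no single-gene permutation test is given. The script was tested on simulated data. All 10 genes are named, and from each context list every DEG of the combination against control if 5 or fewer, otherwise the 4 largest changes whose higher group averaged 5 TPM or more. For the 2 genes with the widest range of group means, the 3 most alike genes by Pearson's r are named. One marker gene is not reported here. The genes and the lists were chosen with earlier results of these data known. Coordinates are from GENCODE on GRCh37, which need not be the annotation counted on, and promoters from RefSeq on GRCh38.p14, with no coordinates converted.

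Groups share the replicate numbers 1 and 2. Same-numbered libraries deviated from their group means together in all 6 pairs of groups (r of 0.169 to 0.491 across genes). The main model held no term for the number, so its p-values and intervals do not use this pairing. Only the replicate block, run as an alternative, does. The pairing is read from the values alone, since the labels do not say what a number shares.

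Alternatives were a pseudocount of 0.1, no filter, a filter at a mean of 5 TPM, quantile normalization, scaling by the median ratio to the geometric mean, the replicate block, moderation without a trend, only the groups compared, an adjusted p below 0.05 at any size, and each library left out.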

Additional observations from a re-analysis of the deposited data

How the results depend on the processing

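The 10 genes gave 0 DEG with palbociclib against control, 1 with the combination against control and 2 with the combination against TCP. Of all genes 9.1%, 13.7% and 12.2% were DEG in these comparisons. Calling at an adjusted p below 0.05 at any size gave 5, 6 and 4 of the 10, against 45%, 53.6% and 50.2% of all genes. At 0.05 the count for the combination against TCP stayed at 4 after quantile normalization and after median-ratio scaling, against 47.4% and 45.7% of all genes. Its DEG count was 1 after quantile normalization and 1 after median-ratio scaling. With each library left out in turn, it ranged from 1 to 2, and the count for the combination against control from 0 to 2 (0 without control replicate 2, 2 without combination replicate 1). The replicate block gave 0, 1 and 2 DEG, the same as without it, and 9.79%, 14.4% and 12.8% of all genes were DEG with the block. At 0.05 the block added RB1 with palbociclib and CDKN2D in the combination against TCP, lost none, and changed no other call of the 10 genes. Where a library was left out, the lone sample of its group was assumed to vary like the other groups.

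Some values that missed the test changed sign. Median-ratio scaling gave 0.028 for CDK4 and 0.014 for CDKN2C with TCP, 0.032 for CDK6 with palbociclib, 0.18 for RB1 with the combination, 0.084 for RB1 in the combination against TCP and 0.025 for CDKN2D in the combination against palbociclib. Quantile normalization gave 0.085 and 0.021 for these RB1 comparisons and 0.021 for that of CDKN2D. With each library left out in turn, the sign changed within these ranges of log2 fold change. With TCP against control they were -0.13 to 0.097 for CDK4, -0.15 to 0.50 for CCND1, -0.74 to 0.76 for CCND2, -0.83 to 0.020 for CDKN1A and -0.15 to 0.25 for RB1. With palbociclib against control they were -0.30 to 0.0096 for CDK6, -0.20 to 1.53 for CCND1 and -0.21 to 0.97 for CCND2, and with the combination against control -0.078 to 1.10 for CCND2 and -0.20 to 0.064 for RB1. For the combination against palbociclib they were -1.17 to 0.56 for CCND1, -0.27 to 0.52 for CCND2, -0.051 to 0.68 for CDKN1A, -0.20 to 0.0012 for CDKN2C and -0.24 to 0.15 for CDKN2D. For the combination against TCP they were -0.097 to 0.46 for CCND1, -0.25 to 1.25 for CCND2, -0.30 to 0.54 for CDKN1A and -0.32 to 0.085 for RB1. For the interaction they were -0.22 to 0.089 for CDK6, -1.35 to 0.38 for CCND1, -0.63 to 0.87 for CCND2, -0.24 to 0.031 for CDKN1B and -0.17 to 0.032 for CDKN2C. The cause of these changes was not tested. CCND1 did not reach the filter at a mean of 5 TPM, and the interaction needs all groups, so no fit of fewer was run for it. With 2 libraries per group and no read counts, the precision of the low genes CCND1, CCND2 and CDKN1A is set by the spread between libraries alone.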

Other observations

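Among the other G1/S regulators, the cyclin E genes, which were chosen for mention after their values were seen, moved less than their kinase CDK2. CCNE1 was at a mean of 29.9 TPM in control and 24.3 TPM with the combination (log2 fold change -0.29, adjusted p = 0.23, limma, and 0.0319 with the replicate block), and CCNE2 at 39.1 and 29.2 TPM (-0.41, adjusted p = 0.0065). The remaining inhibitors were low, with CDKN1C at 1.58 TPM in control and 3.76 TPM with the combination (0.88, adjusted p = 0.00979) and CDKN2B at 2.4 and 2.43 TPM (0.02, adjusted p = 0.941). These too were picked after their values were seen.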
